A study of Mus musculus with 30 samples.

Results

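Interleukins are secreted proteins that carry signals between immune cells, and each acts through a receptor built from 1 or more membrane chains. Most of these receptors signal through JAK kinases and STAT transcription factors, while those of the IL-1 family recruit the adaptor Myd88 and those of the IL-17 family use other adaptors. In the brain, microglia both release and sense interleukins, and IL-34 helps to keep them alive through the receptor Csf1r. The genes described here were all 79 protein-coding mouse genes of the RefSeq annotation of mm10 whose symbol starts with Il and a digit, apart from Il10ra, Il10rb, Il6ra and Il1b, out of 21883 protein-coding genes. A region belonged to a gene where it overlapped the gene's span with 2 kb added on either side, or where its midpoint lay closer to an end of that gene than to any other protein-coding gene end, up to 100 kb away. This gave 57 of the 22399 listed regions, at 24 of the 79 genes.

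The regions came from CUT&Tag, in which an antibody guides a transposase to tag DNA beside the bound protein, in sorted brain microglia of C57BL/6J mice labelled as 8 weeks old. Knockout microglia were Mir137loxP/loxP;Tmem119-CreERT2 (cKO), and their controls were Mir137+/+;Tmem119-CreERT2 (cWT). Both genotypes carried the tamoxifen-inducible Cre at Tmem119, a microglial gene, and both received tamoxifen on 7 consecutive days, so the controls shared Cre and drug. The 30 samples formed 10 groups of 3 replicates, with antibodies against H3K27ac (on active enhancers and promoters), H3K4me3 (on active promoters), RNA polymerase II (Pol II), its serine 5 phosphorylated form (Pol II Ser5P, enriched near gene starts) and Pu.1 (a transcription factor of myeloid cells). Per the labels' protocol, each genotype supplied about 100000 sorted cells. That text repeats a single antibody catalogue number for H3K27ac, Pol II and Ser5P, and a single other one for H3K4me3 and Pu.1.

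The authors deposited a cKO-specific and a cWT-specific list for every antibody, 10 lists in all, without replicate values. No difference between genotypes could therefore be set against the spread between replicates, and no test between genotypes was made. A gene absent from a list may still carry the mark in both genotypes. Read depth is unknown. The authors' p-value was 0.163 or higher in each of the 57 regions, whereas 169 of all 22399 were under 0.05. The hypothesis behind that p-value is not stated in the labels or files. Of 10 microglial marker genes 9 had a listed region (44% of all protein-coding genes had one), Tmem119, P2ry12 and Cx3cr1 among them, and Trem2 had none. None of 7 neuronal and none of 6 neutrophil and mast cell markers had one, but 4 of 6 endothelial and pericyte markers did (66.7%). The oligodendrocyte marker Mbp had 9 regions, as many as P2ry12. Counts for the other cell types are given below. The deleted gene gave no reading, as the listed region closest to Mir137 lay 1074 kb away.

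Mir137 encodes the microRNA removed in cKO microglia. Its main mature strand is shown for the seed (bases 2 to 8, in capitals), whose complement AGCAATA was looked for in promoters. The sequence is RefSeq's on GRCm38.p6, the assembly of mm10, at chr3:118433901-118433923 on the + strand.
mmu-miR-137-3p: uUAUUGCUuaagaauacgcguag

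The start sites of 6 members lay under listed regions. The promoters of 4 of them are shown because the values below refer to them, with 2 under cKO polymerase regions and 2 under cWT H3K27ac regions, and those of Il4i1b and Il18bp are not. Each runs from 250 bases before to 50 bases after the annotated start, 5′ to 3′, from RefSeq on GRCm38.p6. Capitals mark the letters GAGGAAG (a core of Pu.1 sites) or TGANTCA (an AP-1 site), searched on both strands together with AGCAATA. Il6st, at chr13:112463820-112464119 (+), and Il21r, at chr7:125603179-125603478 (+), lay under cKO Pol II and cKO Ser5P regions. Il1a, at chr2:129309923-129310222 (-), and Il7r, at chr15:9529827-9530126 (-), lay under cWT H3K27ac regions.
Il6st: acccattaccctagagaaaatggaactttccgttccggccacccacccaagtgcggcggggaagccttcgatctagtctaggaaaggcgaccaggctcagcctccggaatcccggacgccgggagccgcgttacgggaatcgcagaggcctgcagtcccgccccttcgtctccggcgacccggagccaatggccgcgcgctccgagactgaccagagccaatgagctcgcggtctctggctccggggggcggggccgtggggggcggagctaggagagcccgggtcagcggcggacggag
Il21r: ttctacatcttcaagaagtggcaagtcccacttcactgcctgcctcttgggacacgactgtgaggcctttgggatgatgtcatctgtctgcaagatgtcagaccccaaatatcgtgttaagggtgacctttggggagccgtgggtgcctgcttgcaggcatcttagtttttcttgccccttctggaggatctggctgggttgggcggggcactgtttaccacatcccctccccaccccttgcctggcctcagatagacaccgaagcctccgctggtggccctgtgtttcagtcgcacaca
Il1a: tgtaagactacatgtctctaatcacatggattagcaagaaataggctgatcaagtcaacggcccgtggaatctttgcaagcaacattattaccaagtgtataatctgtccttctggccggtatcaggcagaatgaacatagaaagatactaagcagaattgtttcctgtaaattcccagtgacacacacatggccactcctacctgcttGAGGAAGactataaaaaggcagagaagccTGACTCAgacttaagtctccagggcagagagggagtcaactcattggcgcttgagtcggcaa
Il7r: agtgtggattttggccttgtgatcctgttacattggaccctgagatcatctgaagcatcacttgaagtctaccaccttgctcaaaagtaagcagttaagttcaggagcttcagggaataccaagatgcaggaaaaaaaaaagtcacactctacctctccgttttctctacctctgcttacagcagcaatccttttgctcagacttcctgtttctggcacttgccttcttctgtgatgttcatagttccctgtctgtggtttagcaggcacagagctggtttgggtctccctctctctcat

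Of these 4 windows, the Il1a window held a match: GAGGAAG began at position -41 and TGACTCA at position -12, with the start base as 0. The other 3 windows held none of the 3 motifs. Of the 79 genes, 64 matched the promoter table, with 79 windows. GAGGAAG stood in 9 of these windows (11.4%), against 13.6% of all 32851 windows, and TGANTCA in 14 (17.7%), against 7.81% of all. AGCAATA stood in 2 windows (2.53%), those of Il18rap and Il1f5, against 2.16% of all, and neither gene had a listed region. No printed matches overlapped, and a match describes letters only.

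**Figure D1:**
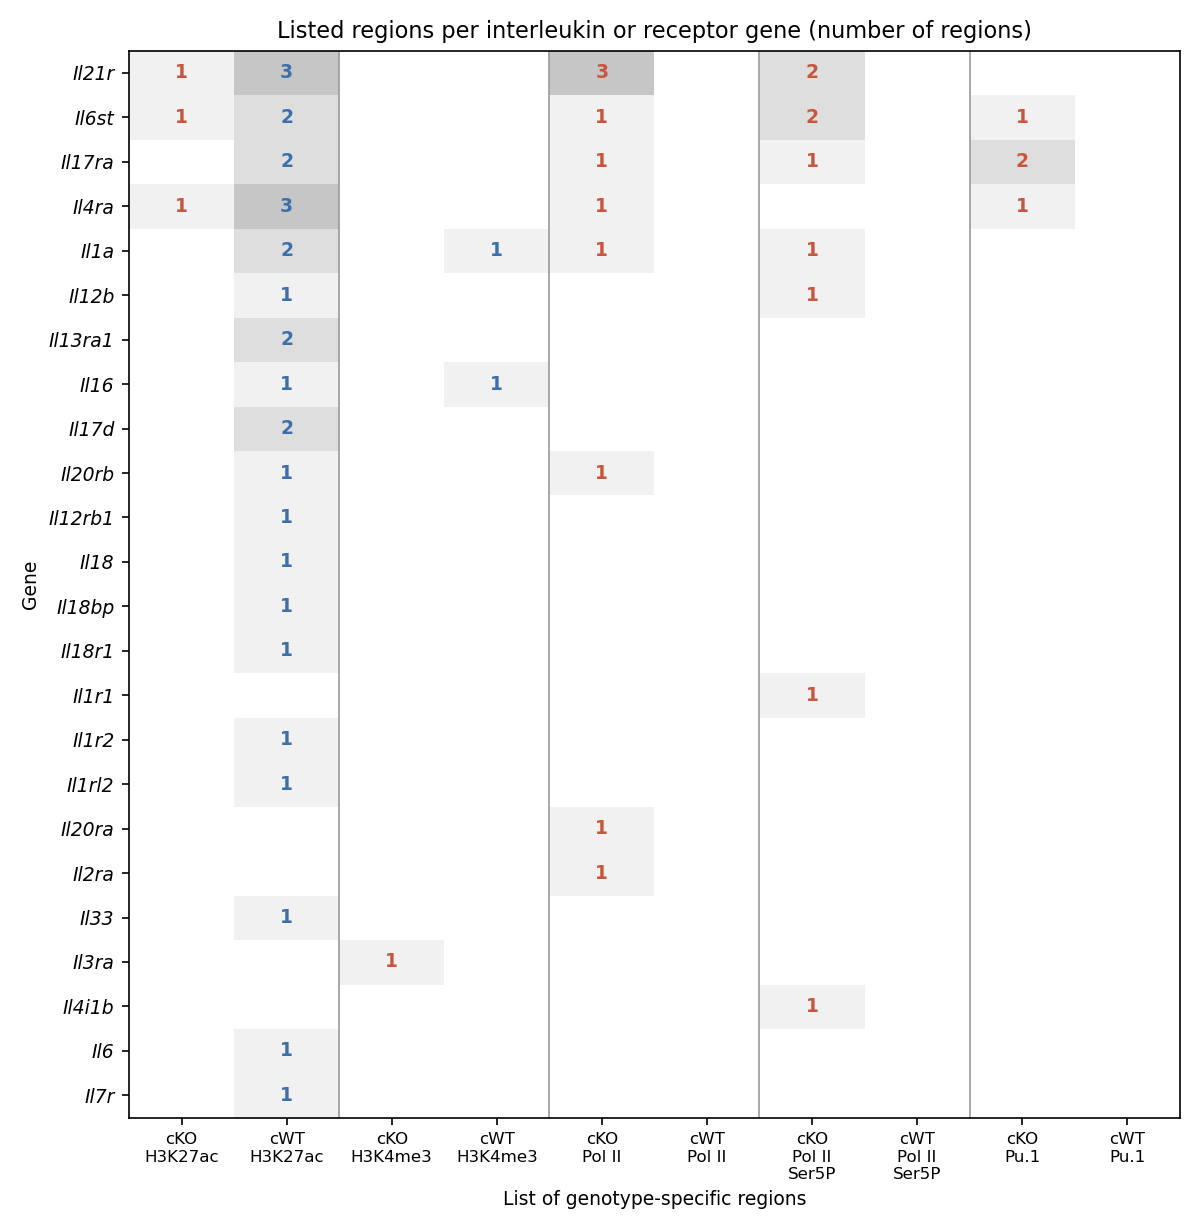
Number of listed regions at each of the 24 genes (rows) in each of the 10 lists (columns), cKO left of cWT for each antibody, with darker cells for higher counts and empty cells for 0. Il21r led with 9 regions, and the cWT lists of Pol II, Pol II Ser5P and Pu.1 had no entry for any interleukin gene.

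The regions at interleukin genes split by antibody. All 10 Pol II regions, all 9 Ser5P regions and all 4 Pu.1 regions came from the cKO lists, whereas 28 of 31 H3K27ac regions came from the cWT list. H3K4me3 gave 1 region from the cKO list and 2 from the cWT list. Over all listed regions too, Pol II, Ser5P and Pu.1 came mostly from the cKO lists and H3K27ac mostly from the cWT list, while H3K4me3 was more often cKO. The cKO share of H3K27ac regions was 9.68% at interleukin genes (3 of 31, 95% exact Clopper-Pearson interval 2.04 to 25.8%) and 10.8% over all H3K27ac regions. For Pol II it was 100% (10 of 10, interval 69.2 to 100%) and 92.2%, for Ser5P 100% (9 of 9, interval 66.4 to 100%) and 98.0%, and for Pu.1 100% (4 of 4, interval 39.8 to 100%) and 95.9%. For H3K4me3 it was 33.3% (1 of 3, interval 0.840 to 90.6%) and 61.5%. These intervals cover the counting of regions only and treat regions as independent, though 33 of the 57 lay at 5 genes. Every interval held the share over all regions, but those from 10 or fewer regions are too wide to show that the shares are alike.

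Counted as genes, 24 of 79 interleukin and receptor genes (30.4%) had a region in any list, against 44% of all protein-coding genes. Of these 24, 7 had regions in lists of both genotypes (8.86% of the 79, background 16.5%), 5 in cKO lists only (6.33%, background 18.5%) and 12 in cWT lists only (15.2%, background 9.06%). In H3K27ac, no interleukin gene was in the cKO list only (background 1.64%), 16 were in the cWT list only (20.3%, background 20%) and 3 were in both lists (3.80%, background 2.08%). In Pol II, 8 were in the cKO list only (10.1%, background 17.9%) and 0 in the cWT list only (background 1.07%). In Ser5P, 7 were in the cKO list only (8.86%, background 23.1%) and 0 in the cWT list only (background 0.242%). In Pu.1, 3 were in the cKO list only (3.80%, background 4.23%) and 0 in the cWT list only (background 0.119%). In H3K4me3, 1 was in the cKO list only (1.27%, background 6.05%) and 2 were in the cWT list only (2.53%, background 3.54%). Counted whatever the other list held, the cKO lists had 3 interleukin genes for H3K27ac (3.80%, background 3.72%), 1 for H3K4me3 (background 6.72%), 8 for Pol II (background 18.7%), 7 for Ser5P (background 23.5%) and 3 for Pu.1 (background 4.28%). The cWT lists had 19 for H3K27ac (24.1%, background 22.1%), 2 for H3K4me3 (background 4.21%), and 0 for Pol II, Ser5P and Pu.1 (backgrounds 1.82, 0.612 and 0.169%). The shares for H3K27ac in both genotypes and for cKO Pu.1 stood near their backgrounds, and the shares for cKO Pol II, cKO Ser5P and H3K4me3 below theirs. The Pol II count rests partly on narrow regions: without regions under 300 bp it was 3 of 79, against 13.9% of all genes. The median span was 12.8 kb for the interleukin genes and 17.2 kb for all protein-coding genes. By quartile of span, from short to long, a region was listed for 1 of 20 interleukin genes (5%) and 22.9% of all genes, for 5 of 23 (21.7%) and 43.6%, for 13 of 20 (65%) and 52.7%, and for 5 of 16 (31.2%) and 56.9%. The interleukin share was thus below that of all genes in every quartile apart from the third.

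**Figure D2:**
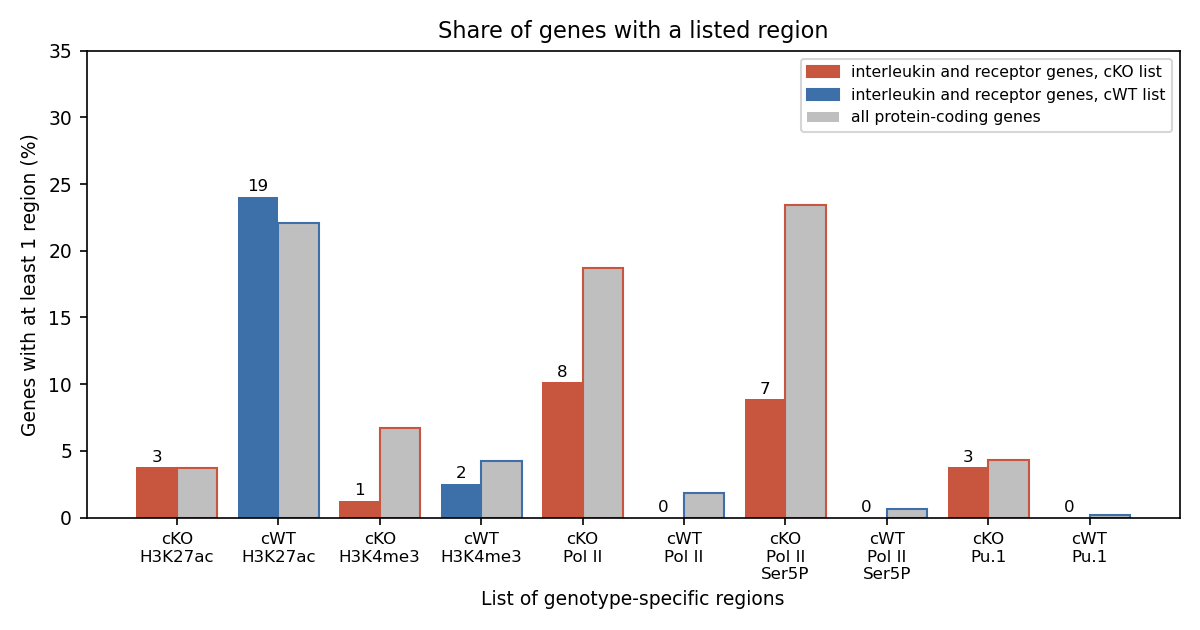
Percentage of genes with at least 1 listed region, by list: coloured bars for the 79 interleukin and receptor genes (red cKO, blue cWT, with the number of genes on top) and grey bars for the 21883 protein-coding genes. The coloured bar for cWT H3K27ac, 19 genes, is close to its grey bar, while those for cKO Pol II (8 genes) and cKO Ser5P (7 genes) are shorter than theirs.

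By role, the receptors held most of the regions. Of 38 receptor chains 15 had a region (39.5%), with 41 regions in all, and of 37 ligands and their soluble binders 7 had one (18.9%), with 13 regions. Both shares were below the 44% of all protein-coding genes. The remaining 4 genes with an interleukin symbol had 3 regions at Il16 and Il4i1b. The receptor genes are also longer, with a median span of 33.8 kb against 6.03 kb for ligand genes. The cKO Pol II list held 7 receptor genes (18.4%) and 1 ligand gene (2.70%), against 18.7% of all genes. The cKO Ser5P list held 4 receptor genes (10.5%) and 2 ligand genes (5.41%), against 23.5% of all genes. The cKO Pu.1 list held 3 receptor genes (7.89%) and no ligand gene, against 4.28% of all genes. The cKO H3K27ac list also held 3 receptor genes and no ligand gene, against 3.72% of all genes. The cWT H3K27ac list held 11 receptor genes (28.9%) and all 7 ligand genes that had a region (18.9% of ligands), against 22.1% of all genes.

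Il21r and Il4ra, neighbours on chromosome 7, carried 15 of the 57 regions. Il21r encodes the receptor chain for IL-21, which pairs with the common gamma chain Il2rg, and Il4ra encodes the chain shared by the receptors for IL-4 and IL-13. Their spans are 23.8 kb apart. Il21r (125603252 to 125634397) had 9 regions, a number that 261 protein-coding genes (1.19%) reached or passed, and Il4ra (125552271 to 125579474) had 6, which 775 (3.54%) reached or passed.

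At the Il21r start, a cKO Pol II region at 125603217 to 125603697 covered 262 of the 300 promoter bases printed above, and a cKO Ser5P region at 125603390 to 125603690 lay within it. This Pol II region ranked in the lowest 12.6% of its list by deposited p, and the Ser5P region at 51.5% of its own. A second such pair lay near the far end of Il21r, where a cKO Pol II region at 125630239 to 125630663 and a cKO Ser5P region at 125630324 to 125630744 shared 340 bp. Il21r also had a cKO Pol II region before its start, at 125601694 to 125602037. Between the polymerase pairs lay 4 H3K27ac regions, and none of these 4 overlapped a polymerase region. From the cKO list came the one at 125617983 to 125618284, and from the cWT list came those at 125608038 to 125608451, 125613584 to 125614047 and 125626601 to 125627026.

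At Il4ra, 3 antibodies met inside the gene. A cKO Pol II region (125555483 to 125555765) and a cKO Pu.1 region (125555505 to 125555745) overlapped by 241 bp, and both overlapped a cWT H3K27ac region (125555255 to 125555627), by 145 and 123 bp. The site lay 3.35 kb after the Il4ra start. Another cWT H3K27ac region lay 373 bp before it, at 125554390 to 125554881. Upstream of Il4ra, 1 cKO H3K27ac region (125542535 to 125542806) and 1 cWT H3K27ac region (125541464 to 125542003) lay 531 bp apart. These were the closest regions of opposite genotype within 1 antibody at any interleukin gene. All Il4ra regions stood in the weaker part of their lists by signal, from 51.1 to 99.7% counted from the strongest.

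**Figure D3:**
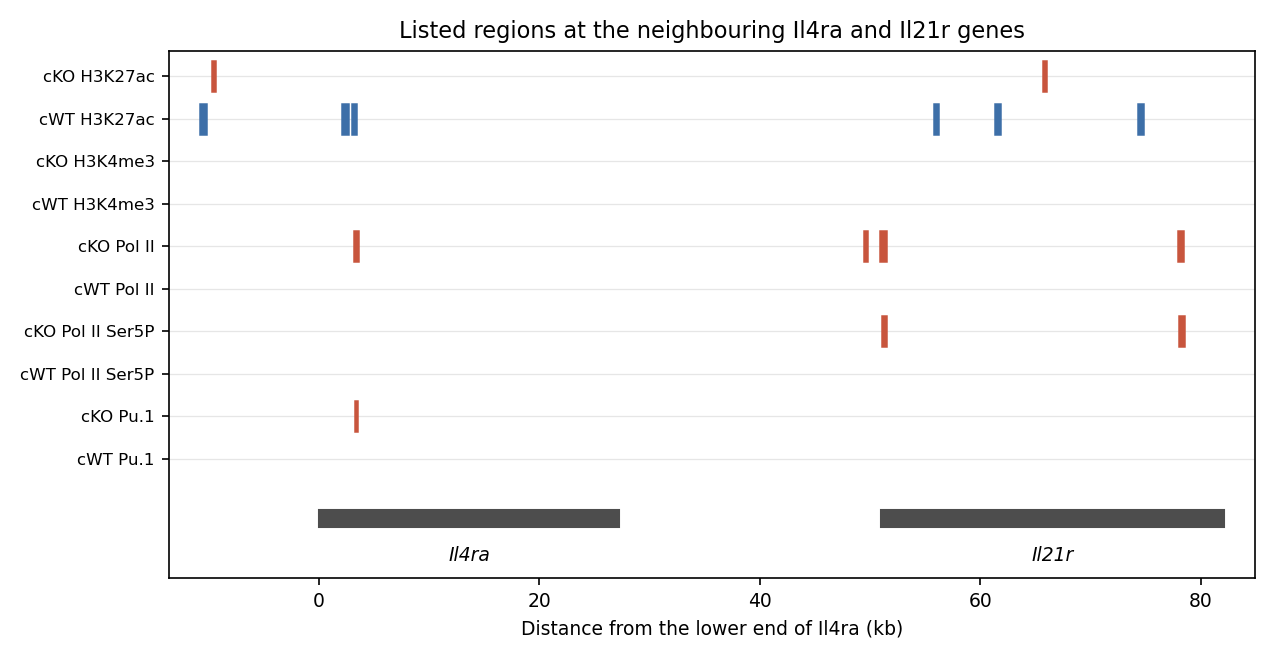
Positions of listed regions (bars, to scale apart from a thin outline) at Il4ra and Il21r on chromosome 7, with distance from the lower end of Il4ra in kb on the x axis and 1 row per list, red for cKO and blue for cWT. The cKO Pol II and Pu.1 bars fall on a cWT H3K27ac bar inside Il4ra, while in Il21r the polymerase bars sit towards both ends and the H3K27ac bars between them.

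Il6st, which encodes gp130, the chain shared by receptors of the IL-6 family, had 7 regions (gene at chromosome 13, 112464070 to 112506860). A cKO Pol II region at 112463759 to 112464342 and a cKO Ser5P region at 112463791 to 112464379 overlapped by 552 bp and both covered the whole printed promoter. A cWT H3K27ac region at 112464617 to 112464911 began 237 bp after the Ser5P region. It had the lowest deposited p of all interleukin regions, 0.163, in the lowest 1.47% of its list, and was the only 1 of the 57 whose deposited name held the word primary. A second cWT H3K27ac region lay at 112466437 to 112466760, and a second cKO Ser5P region at 112472972 to 112473142. Upstream of Il6st, assigned by distance alone, were a cKO Pu.1 region at 112439805 to 112440150 and a cKO H3K27ac region at 112433334 to 112433934. That Pu.1 region, 24.1 kb before the start, stood in the highest 5.01% of its list by signal and the lowest 6.29% by p, and the H3K27ac region, 30.4 kb before the start, was the farthest region assigned to any interleukin gene.

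Il17ra, which encodes a receptor chain for IL-17A and related ligands, had 6 regions, all inside the gene (chromosome 6, 120463181 to 120483731). In cKO lists, 3 antibodies had regions at 1 site: Pu.1 at 120473563 to 120473874, Pol II at 120473604 to 120473889 and Ser5P at 120473615 to 120473850. The Ser5P region lay wholly within the other two. A second cKO Pu.1 region, at 120466904 to 120467217, stood at 4.52% of its list by p, against 97.1% for the one at the shared site. The cWT H3K27ac regions of Il17ra lay between these Pu.1 regions, at 120470466 to 120471189 and 120471943 to 120472326. No promoter of Il17ra was matched, so these positions are given by span only.

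Il1a, which encodes the cytokine IL-1 alpha, had 5 regions (chromosome 2, 129299609 to 129310186). Its cKO regions lay outside the gene. The cKO Ser5P region, at 129319900 to 129320354, was 10.2 kb before the start, and the cKO Pol II region, at 129297361 to 129297658, lay beyond the other end and closer to an end of Ckap2l. A cWT H3K27ac region at 129309938 to 129311080 covered 285 of the 300 bases of the printed promoter. A second cWT H3K27ac region, at 129308657 to 129309411, overlapped a cWT H3K4me3 region at 129308427 to 129309354 by 698 bp. That H3K4me3 region was in the highest 6.35% of its list by signal, while both H3K27ac regions were among the weaker ones of theirs, at 91.9% for the one inside the gene and 87.9% for the one at the start.

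**Figure D4:**
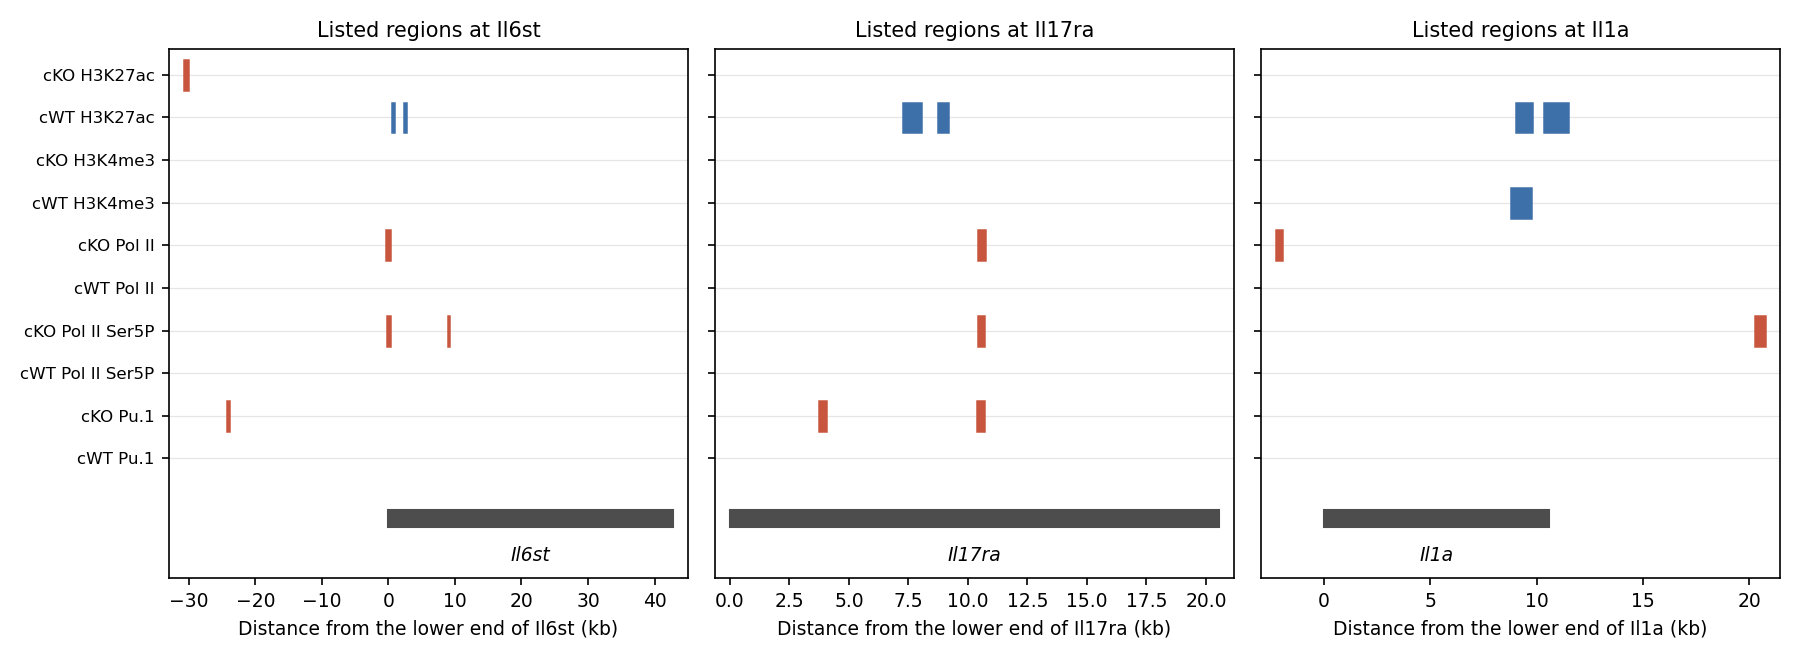
Positions of listed regions (bars) at Il6st, Il17ra and Il1a, with distance from the lower end of each gene in kb on the x axes and 1 row per list, red for cKO and blue for cWT. Polymerase bars stand at the start of Il6st, on a Pu.1 bar inside Il17ra, and on both sides of Il1a outside the gene.

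These 5 genes, Il21r, Il6st, Il17ra, Il4ra and Il1a, held 33 of the 57 regions and every overlap between antibodies. They were the 5 with at least 3 antibodies (6.33% of the 79, background 10.4%), and 3 of them, Il6st, Il17ra and Il1a, had 4 (3.80%, background 2.85%). Among all interleukin regions, 14 of the 57 regions (24.6%) overlapped a region of another antibody by at least 1 bp, against 44.0% of all listed regions. For Pol II this was 5 of 10 (50%) against 64.5%, for Ser5P 4 of 9 (44.4%) against 55.1%, for H3K27ac 2 of 31 (6.45%) against 21.0%, for H3K4me3 1 of 3 (33.3%) against 45.4%, and for Pu.1 2 of 4 (50%) against 48.2%. At 6 genes, the 5 above and Il20rb, cKO Pol II and cWT H3K27ac regions occurred together (7.59%, background 8.64%), and at Il4ra alone did such regions overlap. At 5 genes, Il21r, Il6st, Il17ra, Il1a and Il12b, cKO Ser5P and cWT H3K27ac regions occurred together (6.33%, background 9.98%), and at none of them did such regions overlap.

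Among the other ligands, Il12b and Il17d had 2 regions each, and Il6, Il18, Il18bp and Il33 had 1 each from the cWT H3K27ac list. Il6, a fever and acute phase cytokine, had its region at 30013146 to 30013626 of chromosome 5, beginning 32 bp after its start, in the lowest 20.4% of the list by p. Il12b encodes the p40 subunit of IL-12 and IL-23. Its regions lay before the gene on chromosome 11, a cKO Ser5P region at 44382107 to 44382671 and a cWT H3K27ac region at 44372950 to 44373320. Il17d, an IL-17 family cytokine, had 2 cWT H3K27ac regions that touched, at 57537614 to 57537917 and 57537918 to 57538091 of chromosome 14, with the same deposited signal, 13.2, and they counted as 1 when neighbours were merged. Il33 encodes an alarmin and Il18 a cytokine released after inflammasome activation, and Il18bp encodes the protein that binds IL-18. The Il33 region, at 29940442 to 29940762 of chromosome 19, was the highest of the ligand regions by H3K27ac signal, in the top 11.9% of its list. The Il18bp region, at 102018004 to 102018390 of chromosome 7, covered the gene's start, and the Il18 region, at 50551813 to 50552381 of chromosome 9, lay 2.60 kb before it.

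Among the other receptors, the IL-1 receptor cluster of chromosome 1 had 1 region at each of 4 of its genes. Il1r1, the signalling receptor of IL-1, had a cKO Ser5P region at 40294705 to 40294979. Il1r2, a decoy receptor of IL-1, had a cWT H3K27ac region at 40087184 to 40087862, 1.43 kb after its start. Il1rl2, the receptor for IL-36, and Il18r1, a chain of the IL-18 receptor, had cWT H3K27ac regions beyond their ends, at 40380856 to 40381369 and 40501955 to 40502439. Il1rl1 and Il18rap, in the same cluster, had none.

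Il20rb and Il20ra encode chains of receptors for IL-20 family cytokines, and both were in the cKO Pol II list. For Il20rb the region lay 4.91 kb past the gene's end on chromosome 9, at 100452612 to 100453013, with a cWT H3K27ac region inside the gene at 100458149 to 100458724. For Il20ra it lay inside the gene on chromosome 10, at 19738348 to 19738531, and was 184 bp wide. Il2ra, the alpha chain of the IL-2 receptor, had a cKO Pol II region 5.41 kb before its start (chromosome 2, 11637235 to 11637520). Il13ra1, which joins Il4ra in a receptor for IL-4 and IL-13, had 2 cWT H3K27ac regions on chromosome X, at 36108474 to 36108816 and 36136370 to 36136759. Il12rb1, a chain of the IL-12 and IL-23 receptors, had 1 cWT H3K27ac region beside its span on chromosome 8, at 70806712 to 70807090. Il7r, the IL-7 receptor chain, had its cWT H3K27ac region on chromosome 15, at 9529683 to 9530204, which covered its whole printed promoter. Il3ra, the IL-3 receptor chain, was the sole member of the cKO H3K4me3 list, with a region on chromosome 14, at 14345967 to 14346396. It lay inside the gene's span, which begins at 14345912, but before the start in the promoter annotation, 14346495.

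Il21r, Il7r and Il2ra are best known from lymphocytes, so lymphocyte markers were counted beside them. Of 8 T and NK cell markers 2 had a region, Lck and Ncr1, with 2 regions in cKO lists and 3 in cWT lists, and Cd3e, Cd3d, Cd3g, Cd4, Cd8a and Klrb1c had none. Of 5 B cell markers 1 had a region, Cd79a, with 1 in a cKO list, and Ms4a1 had none. Of 7 markers of border macrophages and monocytes 3 had a region, Mrc1, Ccr2 and Cd163, with 4 regions in cKO lists and 5 in cWT lists. Endothelial and pericyte markers had regions at 4 of 6 genes (66.7%), oligodendrocyte markers at 2 of 7 (28.6%) and astrocyte markers at 1 of 6 (16.7%). In percent, T and NK cell markers stood at 25%, B cell markers at 20% and border macrophage and monocyte markers at 42.9%. The share of all protein-coding genes with a region was 44%. The part of these cells in the interleukin regions was not tested.

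Il16, a chemoattractant that acts through Cd4, had 2 cWT regions on chromosome 7, H3K4me3 at 83654836 to 83655344, 405 bp after an annotated start, and H3K27ac at 83645780 to 83646118. Il4i1b belongs to an amino acid oxidase locus, and its cKO Ser5P region, at 44815813 to 44816553 of chromosome 7, covered its start but had its midpoint closer to an end of Nup62. The 2 genes cannot be told apart at that region. Il4i1, which overlaps Il4i1b, had no region of its own.

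The 55 genes without a listed region included 30 ligands and 23 receptor chains. All 6 ligands of common gamma chain receptors (Il2, Il4, Il7, Il9, Il15 and Il21) were among them. Also among them were all 5 ligands of the IL-10 and IL-20 family (Il10, Il19, Il20, Il22 and Il24). All 4 ligands grouped here as type 2 or beta common cytokines (Il3, Il5, Il13 and Il25) were among them too. So were Il34, the Csf1r ligand, Il1rn, the IL-1 receptor antagonist, Il2rg and Il1rap, the accessory chain of IL-1 receptors. Having no region was common, as 12256 of the 21883 protein-coding genes had none. The ligand groups named above are also mostly short, with median spans of 8.04, 5.34 and 3.26 kb in that order. Il15 and Il7, of the first group, are longer, at 71.6 and 41.7 kb. Of all genes in the 2 shortest quartiles of span, 22.9 and 43.6% had a region, and in the 2 longest 52.7 and 56.9%. Whether these groups differ from other genes of their length was not tested.

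Most of the regions were not among the leading ones of the authors' lists. Ranked by deposited p within its own list, 22 of the 57 stood in the first 50%. The median rank was 62.9% for the 28 cWT H3K27ac regions, 57.9% for the 10 cKO Pol II regions, 51.5% for the 9 cKO Ser5P regions and 34.7% for the 4 cKO Pu.1 regions. The Pu.1 regions were split, at 4.52 and 6.29% for Il17ra and Il6st and at 63.1 and 97.1% for Il4ra and the other Il17ra region. The start window of some gene was touched by 3 of 10 cKO Pol II regions (30%) and 3 of 9 cKO Ser5P regions (33.3%), against 35.2 and 36.0% of these lists, and by 4 of 28 cWT H3K27ac regions (14.3%), against 16.8%. In the lists with fewer interleukin regions, 0 of 4 cKO Pu.1 regions did (19.8% of the list), 0 of 3 cKO H3K27ac regions (15.5%), 1 of 1 cKO H3K4me3 region (45.2%) and 0 of 2 cWT H3K4me3 regions (45.3%).

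**Figure D5:**
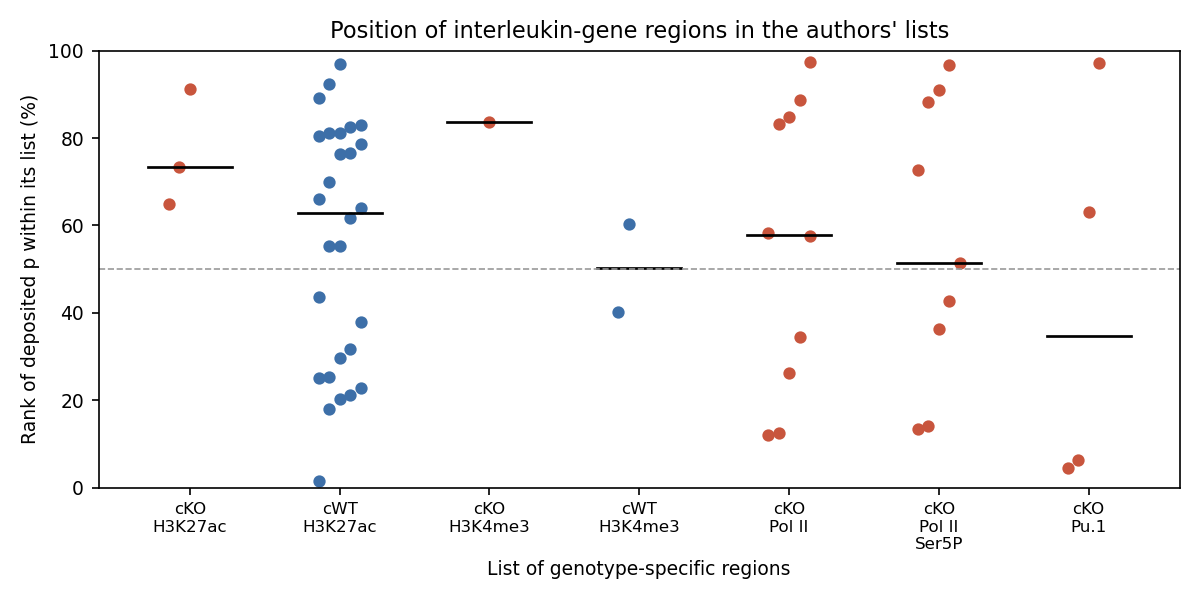
Rank of each interleukin region by deposited p within its own list, in percent with the lowest p at the bottom, by list, red for cKO and blue for cWT. Black bars are medians and the dashed line is 50%. The Il6st H3K27ac region, at 1.47%, is the lowest point, and the cKO Pu.1 points run from 4.52 to 97.1%.

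Beyond the interleukin symbols, 18 of 27 genes for receptor partners, related receptors and signal transducers had a listed region (66.7%, background 44% for any list). In H3K27ac 0 of the 27 were in the cKO list only (background 1.64%) and 9 in the cWT list only (33.3%, background 20%). In the cKO list only were 6 for Pol II (22.2%, background 17.9%), 9 for Ser5P (33.3%, background 23.1%) and 3 for Pu.1 (11.1%, background 4.23%). In the cWT list only were 0 for each of these antibodies (backgrounds 1.07, 0.242 and 0.119%). In H3K4me3 2 were in the cKO list only (7.41%, background 6.05%) and 1 in the cWT list only (3.70%, background 3.54%). Both lists held 2 of the 27 for Pol II, 1 for Ser5P and 1 for H3K4me3 (7.41, 3.70 and 3.70%). Of all genes, 18.7, 23.5 and 6.72% were in the cKO lists of Pol II, Ser5P and H3K4me3, whatever the cWT list held. In the cKO list only were 17.9, 23.1 and 6.05%. For each antibody, the gap between these shares is the share of all genes in both lists. Jak1, a kinase used by many of these receptors, had regions of 4 antibodies, with 2 each in the cKO lists of Pol II, Ser5P and H3K4me3, 1 in the cWT Ser5P list and 2 in the cWT H3K27ac list. Csf1r, the receptor for IL-34 and CSF-1, also had 4 antibodies, with 1 Pol II region in each genotype's list, 2 in the cKO Ser5P list, 1 in the cKO Pu.1 list and 1 in the cWT H3K27ac list. Stat6, the transcription factor that acts below Il4ra, had 2 cKO Ser5P regions and 1 cKO Pu.1 region. Of 9 related ligands 5 had a region (55.6%, background 44%): Osm and Csf1 with 2 each, and Lif, Clcf1 and Tslp with 1 each.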

How the data were processed

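CUT&Tag regions from 30 samples (10 groups, taken from the sample titles) were analysed. The tools HOMER 4.11, bedtools 2.30.0, MACS2 2.2.7.1 and Bowtie2 2.4.4 and the builds GRCm38 and mm10 are named, per the submitters' processing notes. Neither the pooling of replicates nor the rule for genotype-specific regions is stated there. From each deposited list the position, score, p-value and signal (scale unstated) of every region were read. These are the authors' values. Apart from the lowest p and the count of p under 0.05, they were used only to rank or filter regions within a list. Genes and their ends came from RefSeq (GRCm38.p6), without exons or UTRs, and starts and strands came from its promoter table. Positions count from 1. A region could belong to several genes, and equally near genes were all kept.

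Background percentages apply the same rule to all 21883 protein-coding genes. Exact Clopper-Pearson intervals are at 95%. The members and lists were chosen with earlier results of these data known. Named genes were those with at least 2 antibodies or among the 5 with the most regions of a list and at least 2. All others with a region are given once, and pathway genes singled out had the most antibodies, apart from Stat6, chosen after its values were seen. The assignment was checked on artificial genes with known answers. Motifs in regions away from promoters were not searched. Python 3.11.15, numpy 2.4.6, pandas 2.3.3, scipy 1.17.1 and matplotlib 3.10.9 were used. Of the marker genes listed for other cell types, 1 is not reported here.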

Additional observations from a re-analysis of the deposited data

How the results depend on the processing

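Counts of interleukin genes in the cKO list only or the cWT list only, and the cKO share of their regions, were recomputed for 5 antibodies under 6 alternatives. Of 85 values 72 stayed within 1.5 times the reported count or within the interval of the reported share, among them all values with gene spans only, with ends within 10 kb and with regions within 1 kb merged. Many of the 72 could not move, because the alternatives only drop or merge regions. For Pol II, Ser5P and Pu.1, interleukin genes had 0 cWT regions, so counts in the cWT list only stayed 0. Their cKO shares likewise stayed 100% wherever a share could be formed. The H3K4me3 interval, 0.840 to 90.6%, also let most shares pass. The tally is therefore no measure of robustness. Without regions under 300 bp, the Pol II count in the cKO list only was 3, against 8 (13.9%, against 17.9%, of all genes). With the 50% of each list that had the lower p, the cKO share was 0% for H3K27ac and 0% for H3K4me3. These rest on 11 regions (interval 0 to 28.5%) and 1 region (interval 0 to 97.5%), and both intervals held the reported share. The counts in the cKO list only were then 4 for Pol II (10.6% of all genes), 4 for Ser5P (13.9%) and 0 for H3K4me3 (3.26%). The H3K4me3 count in the cWT list only was 1 (1.99% of all genes). In the full lists, these all-gene shares were 17.9, 23.1, 6.05 and 3.54%, so they fell as well. With deposited p under 0.05, no interleukin region remained, so every count was 0 and no share could be formed. That filter left at most 0.439% of all genes with any of these calls. Fewer regions remain by construction in these 3 settings. No paired analysis was possible because the lists hold no value per replicate. Leaving out replicates was not run for the same reason. Read depth is unknown, and the share of silent genes among the 79 was not measured.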

Other observations

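Genes without a listed region differed in how close the nearest listed region of any gene lay. The distance from the span had a median of 48.8 kb over these 55 genes, from 4.35 kb at Il11ra1, the IL-11 receptor chain, to 3049 kb. Of the 57 assigned regions, 41 lay at least partly inside a gene span, 4 within 2 kb of it and 12 farther away, between 2.32 and 30.1 kb from the span. The distance limit of 100 kb was therefore not approached by any assigned region.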
